A study of Homo sapiens with 6 samples.

Results

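The genes described here are 10 genes of the endoplasmic reticulum, namely HSPA5, HSP90B1, DNAJB9, DNAJC3, HERPUD1, SEL1L, SDF2L1, XBP1, PDIA4 and CALR. They were taken as the rows of the expression table whose Ensembl identifier carries one of these symbols in GENCODE v44 on GRCh37. All 10 were found among the 57773 genes listed, and all 10 were among the 15451 genes tested, those that averaged 0.5 RPKM or more over all libraries (RPKM being reads scaled to the length of the gene model and to the library total). RNA was sequenced from NCI-H460 cells, an established line of non-small-cell lung cancer, after transfection with 50 nM siRNA for 48 hours. The control group (siNT) received a non-targeting siRNA. The knockdown group (siHKlincR1) received siHKlincR1_2, which is directed at the long intergenic noncoding RNA *HKlincR1* (AC093323.3). Both siRNAs had the supplier's ON-TARGETplus modification. Each group had 3 libraries, described by the authors as biological triplicates. Since siHKlincR1_2 was the only targeting siRNA in these libraries, the effect of losing *HKlincR1* and any other effect of that siRNA cannot be told apart.

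The endoplasmic reticulum is where secreted and membrane proteins are folded, and it holds a set of chaperones, disulfide isomerases and degradation factors for that purpose. When unfolded proteins accumulate there, the sensors ATF6, IRE1 (gene ERN1) and PERK (gene EIF2AK3) start the unfolded protein response. ATF6 and the spliced form of XBP1 raise transcription of chaperone and degradation genes, while PERK phosphorylates eIF2α and favours translation of ATF4, whose targets include DDIT3 and amino acid synthesis genes. Many carcinoma lines hold these chaperones at high levels.

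Library totals worked back from the RPKM values ranged from 24980280 to 30521000 reads. *HKlincR1* was listed at 3.62, 3.47 and 3.83 RPKM with siNT and at 0.563, 0.628 and 0.390 RPKM with siHKlincR1, a mean 85.5% lower. The keratins KRT8 (28.1 to 32.1 RPKM), KRT18 (78.9 to 88.5 RPKM) and KRT19 (35.7 to 57.1 RPKM) were present in all 6 libraries, while the epithelial genes EPCAM and CDH1 were at 0.110 RPKM at most. Of 8 marker genes of blood, endothelial and fibroblast cells, only COL1A1 (means of 1.10 and 0.580 RPKM) and PDGFRB (0.627 and 0.879 RPKM) averaged over 0.5 RPKM, and the summed level of all 8 was 1.78 to 1.83 RPKM with siNT and 1.37 to 1.87 RPKM with siHKlincR1. Their part in the members' levels was not tested. The third library of each group stood apart from the other two. In both groups it was higher for 11 of 12 cytosolic heat shock genes and lower for 13 of 15 genes of the PERK and ATF4 arm, as detailed after the members.

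Several members carry in their promoters the endoplasmic reticulum stress elements through which NF-Y, ATF6 and XBP1 are known to act, and these are shown because they sort the members by a feature other than expression. Promoters were taken from the RefSeq table for GRCh38.p14, from 250 bases before to 50 bases after each start site, and all 10 members matched (XBP1 and PDIA4 with 2 entries each). The element ERSE was searched on both strands as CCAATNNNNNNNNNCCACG. It was found in 27 of 35116 promoters (0.077%) and in those of 4 members, HSPA5, HSP90B1, XBP1 and CALR, with HSP90B1 holding 2 copies. Each copy is written here 5′ to 3′ along its own strand with its GRCh38 position, and the capitals mark the fixed bases. The HSPA5, XBP1, CALR and proximal HSP90B1 copies lie on the minus strand of the chromosome and the distal HSP90B1 copy on the plus strand.
HSPA5 (chr9:125241391-125241409): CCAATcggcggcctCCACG
HSP90B1 distal (chr12:103930216-103930234): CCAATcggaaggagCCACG
HSP90B1 proximal (chr12:103930321-103930339): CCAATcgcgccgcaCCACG
XBP1 (chr22:28800603-28800621): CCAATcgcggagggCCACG
CALR (chr19:12938384-12938402): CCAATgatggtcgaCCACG

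The related element ERSE-II was searched as ATTGGNCCACG and was found in 19 of 35116 promoters (0.054%), which included those of HERPUD1 (plus strand) and SDF2L1 (minus strand). Both elements contain the letters CCACG and the letters CCAAT or their complement, so counts of those shorter motifs overlap with them. The core of the unfolded protein response element, TGACGTGG, was in 0.729% of promoters and in no member's window. The core TGATGCAA, bound by C/EBP and ATF factors, was in 0.866% of promoters and in that of HERPUD1.
HERPUD1 (chr16:56932025-56932035): ATTGGgCCACG
SDF2L1 (chr22:21642114-21642124): ATTGGtCCACG

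The 250 bases before the start site are given for HSP90B1, which holds 2 ERSE copies, and for HERPUD1 and SDF2L1, which share ERSE-II. All 3 are on the plus strand of GRCh38. HERPUD1 and SDF2L1 had estimates of opposite sign. The sign of HERPUD1 is not settled, as its log2 fold change was 0.12 (standard error 0.18), and -0.03 without the third siNT library. Capitals mark ERSE, ERSE-II and, in HERPUD1, also the C/EBP and ATF core.
HSP90B1 (chr12:103930160-103930409): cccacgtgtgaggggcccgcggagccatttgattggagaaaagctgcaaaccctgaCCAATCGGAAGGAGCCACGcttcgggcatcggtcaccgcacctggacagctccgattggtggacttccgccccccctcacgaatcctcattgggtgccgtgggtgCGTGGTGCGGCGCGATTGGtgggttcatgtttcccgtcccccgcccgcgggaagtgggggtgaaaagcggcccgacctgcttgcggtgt
HERPUD1 (chr16:56931892-56932141): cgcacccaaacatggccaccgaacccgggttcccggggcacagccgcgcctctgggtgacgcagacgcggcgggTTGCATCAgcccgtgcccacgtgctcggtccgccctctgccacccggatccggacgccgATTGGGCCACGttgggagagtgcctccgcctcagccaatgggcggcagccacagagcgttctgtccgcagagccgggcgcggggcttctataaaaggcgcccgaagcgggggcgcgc
SDF2L1 (chr22:21642052-21642301): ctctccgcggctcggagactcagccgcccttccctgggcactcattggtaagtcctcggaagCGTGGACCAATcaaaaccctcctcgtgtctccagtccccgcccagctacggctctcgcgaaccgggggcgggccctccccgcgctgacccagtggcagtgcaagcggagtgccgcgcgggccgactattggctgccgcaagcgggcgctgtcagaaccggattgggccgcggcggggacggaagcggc

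With siNT the members spanned a wide range of levels. HSPA5 was the highest (388.8 RPKM ± 6.14, SD, n = 3), followed by CALR (236.4 ± 17.6), HSP90B1 (206.9 ± 6.05) and PDIA4 (176.8 ± 5.21), and these 4 lay above the 98th percentile of the tested genes. Then came SDF2L1 (33.4 ± 5.79), XBP1 (28.9 ± 8.24), HERPUD1 (22.3 ± 3.79), DNAJC3 (14.6 ± 1.14), SEL1L (10.5 ± 0.639) and DNAJB9 (4.69 ± 0.614). DNAJB9 sat at the 47.9th percentile. Neighbours in this order had separate ranges over the 3 siNT libraries, except that SDF2L1 overlapped XBP1 and XBP1 overlapped HERPUD1.

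**Figure D1:**
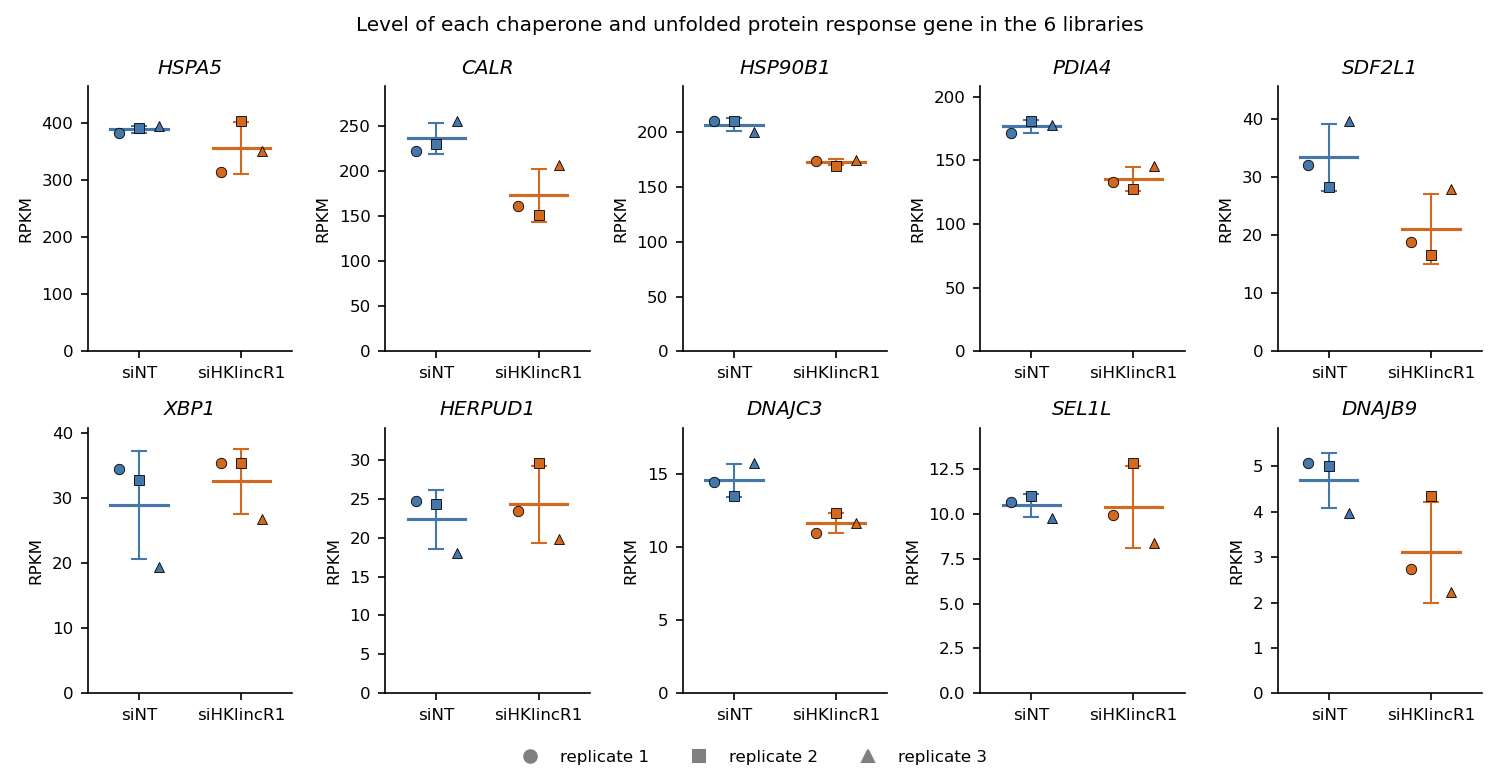
RPKM (linear axes from 0) of each of the 10 members in the 3 siNT and 3 siHKlincR1 libraries, ordered by the siNT mean; symbols mark the replicate number, horizontal lines the mean and bars ± 1 SD. The groups are separate for CALR, HSP90B1, PDIA4, SDF2L1 and DNAJC3, where every siHKlincR1 library is below every siNT library, and they overlap for the other members.

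In the comparison of siHKlincR1 with siNT, 8 of 10 members were lower and 2 were higher. Their median log2 fold change was -0.29, against 0.0011 over all tested genes. The members were chosen with earlier results of these data known, so these counts are a description only. All siHKlincR1 libraries were below all siNT libraries for 5 members (HSP90B1, DNAJC3, SDF2L1, PDIA4 and CALR), where 11.9% of all tested genes did so, and none was separated upwards, where 10.1% of all tested genes were. None of the 10 passed the test, which was limma on log2(RPKM + 0.1) with Benjamini-Hochberg adjustment over all tested genes, with thresholds of 0.05 for the adjusted p and 1.5 for the fold change. That test called 0.356% of all tested genes lower and 0.00647% higher, and 6 members, all lower, had an unadjusted p under 0.05, as did 1420 lower and 1088 higher genes of the 15451 tested. With the replicate number as a block, SDF2L1 alone was called lower, against 0.809% of tested genes called lower and 0.511% called higher in that fit. PDIA4 and CALR also had a blocked adjusted p under 0.05 but changed by less than 1.5-fold. Over the 15451 tested genes, 266 lower and 186 higher genes had a blocked adjusted p under 0.05 at any fold change. Related lists, given below, also held such genes. With voom on the reads worked back no member was called.

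HSPA5 (BiP, ENSG00000044574, chr9:127997132-128003661 of GRCh37, minus strand) is the Hsp70 chaperone of the endoplasmic reticulum and also keeps the stress sensors inactive. It was listed at 381.9, 390.9 and 393.7 RPKM with siNT and at 314.4, 403.7 and 350.3 RPKM with siHKlincR1. The second siHKlincR1 library was above every control and the other two were below, so the groups overlapped. The log2 fold change was -0.13 (standard error 0.10, 95% interval -0.36 to 0.09, limma adjusted p = 0.505). It was -0.05 without the first siHKlincR1 library and -0.23 without the second, and with library weights it was -0.27 (limma adjusted p = 0.0289, under 1.5-fold). The processed pseudogene HSPA5P1 was listed at 16.7 to 23.0 RPKM over the 6 libraries, so a small share of reads may have been split between the copies.

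Of the J-domain proteins that drive the ATPase cycle of BiP, DNAJB9 (ERdj4, ENSG00000128590, chr7:108210311-108215294, plus strand), a repressor of IRE1 and a helper of degradation, was the least abundant member. It had 5.08, 5.00 and 3.98 RPKM with siNT and 2.74, 4.35 and 2.23 RPKM with siHKlincR1, which rested on 189 to 433 reads per library. The second siHKlincR1 library lay within the range of the controls while the other two lay below it. The mean was 33.7% lower, and the log2 fold change of -0.63 (standard error 0.23) missed the thresholds (limma adjusted p = 0.277, blocked 0.0858). DNAJC3 (p58IPK, ENSG00000102580, chr13:96329393-96447242, plus strand), another J-domain cochaperone known as an inhibitor of PERK, had 14.5, 13.5 and 15.8 RPKM with siNT against 11.0, 12.3 and 11.7 RPKM with siHKlincR1. Every siHKlincR1 library was below every control, and the mean was 20.0% lower (log2 fold change -0.32, standard error 0.08, limma adjusted p = 0.182).

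SDF2L1 (ENSG00000128228, chr22:21996591-21998588, plus strand) forms a complex with the J-domain protein DNAJB11 that keeps BiP clients soluble. It had the largest log2 fold change of the members over all 6 libraries, with 32.1, 28.4 and 39.8 RPKM with siNT and 18.9, 16.6 and 27.9 RPKM with siHKlincR1. Every siHKlincR1 library was lower, by 0.76, 0.77 and 0.51 on the log2 scale in replicates 1, 2 and 3, although the third siHKlincR1 library came within 0.5 RPKM of the second control. The mean was 36.8% lower and the log2 fold change was -0.68 (standard error 0.21). The limma adjusted p was 0.224 unblocked and 0.0265 blocked, where the standard error was 0.07 and SDF2L1 was called. Without the block, the call was also made with library weights (-0.73, limma adjusted p = 0.00524), a fit that leaned on the first siHKlincR1 library. The call was made too without the third siHKlincR1 library (-0.90, limma adjusted p = 0.0293) and without replicate 3 of both groups (-0.77, limma adjusted p = 0.0294).

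HSP90B1 (GRP94, ENSG00000166598, chr12:104323885-104347709, plus strand) is the Hsp90 of the endoplasmic reticulum, with integrins and Toll-like receptors among its clients. Its level was 210.5, 210.3 and 199.9 RPKM with siNT and 173.9, 169.3 and 174.2 RPKM with siHKlincR1. The groups were separate and each was narrow. The mean was 16.6% lower (log2 fold change -0.26, standard error 0.06, limma adjusted p = 0.140, and 0.0563 with the block). Exons of HSP90B1 overlap those of the opposite-strand gene UQCC6, which averaged 5.70 RPKM, and the pseudogenes HSP90B2P (18.0 to 22.1 RPKM) and HSP90B3P (14.8 to 19.0 RPKM) also held reads, so its value is uncertain to that extent.

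CALR (calreticulin, ENSG00000179218, chr19:13049392-13055303, plus strand) is the soluble lectin chaperone of glycoproteins and a store of luminal calcium. It had 222.8, 230.2 and 256.2 RPKM with siNT and 161.6, 151.3 and 206.4 RPKM with siHKlincR1. The groups were separate, with the third library highest in each. The mean was 26.8% lower (log2 fold change -0.46, standard error 0.12, limma adjusted p = 0.190), and the blocked adjusted p was 0.0444 at a change under 1.5-fold. Without the third siHKlincR1 library CALR met both criteria (-0.59, limma adjusted p = 0.0274).

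PDIA4 (ERp72, ENSG00000155660, chr7:148700154-148725754, minus strand), a protein disulfide isomerase, had 171.1, 181.2 and 178.1 RPKM with siNT and 133.1, 127.2 and 145.7 RPKM with siHKlincR1. The groups were separate by more than the range of either. The mean was 23.5% lower (log2 fold change -0.39, 95% interval -0.56 to -0.22), and PDIA4 had the smallest adjusted p of the members without the block (limma, 0.0973, and 0.0451 with it).

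HERPUD1 (ENSG00000051108, chr16:56966054-56978776, plus strand) and SEL1L (ENSG00000071537, chr14:81937891-82000197, minus strand) are membrane components of the complex around the ubiquitin ligase HRD1, which removes misfolded proteins for degradation in the cytosol. HERPUD1 was listed at 24.7, 24.3 and 18.0 RPKM with siNT and at 23.4, 29.6 and 19.9 RPKM with siHKlincR1. The groups overlapped, with the third library lowest in both (log2 fold change 0.12, standard error 0.18, limma adjusted p = 0.756). SEL1L had 10.7, 11.0 and 9.74 RPKM with siNT and 9.90, 12.8 and 8.36 RPKM with siHKlincR1. Its siHKlincR1 libraries lay on both sides of the controls, and the log2 fold change was -0.03 with a 95% interval of -0.39 to 0.32 (limma adjusted p = 0.925). Leaving out 1 library could turn either sign, with HERPUD1 at -0.03 without the third siNT library and at -0.04 without the second siHKlincR1 library, and SEL1L at 0.0015 without the second siNT library and at 0.11 without the third siHKlincR1 library.

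XBP1 (ENSG00000100219, chr22:29190543-29196585, minus strand) is the transcription factor made active when IRE1 splices its mRNA, a change that gene-level values cannot show. It had 34.5, 32.7 and 19.4 RPKM with siNT and 35.4, 35.4 and 26.8 RPKM with siHKlincR1. Each siHKlincR1 library was above the control of the same number, yet the groups overlapped, and the third library was low in both. The log2 fold change was 0.20 with a 95% interval of -0.33 to 0.74 (limma adjusted p = 0.667, and 0.237 with the block). Without the third control library alone the difference was -0.06, while without replicate 3 of both groups it was 0.08. Its direction is thus not settled.

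**Figure D2:**
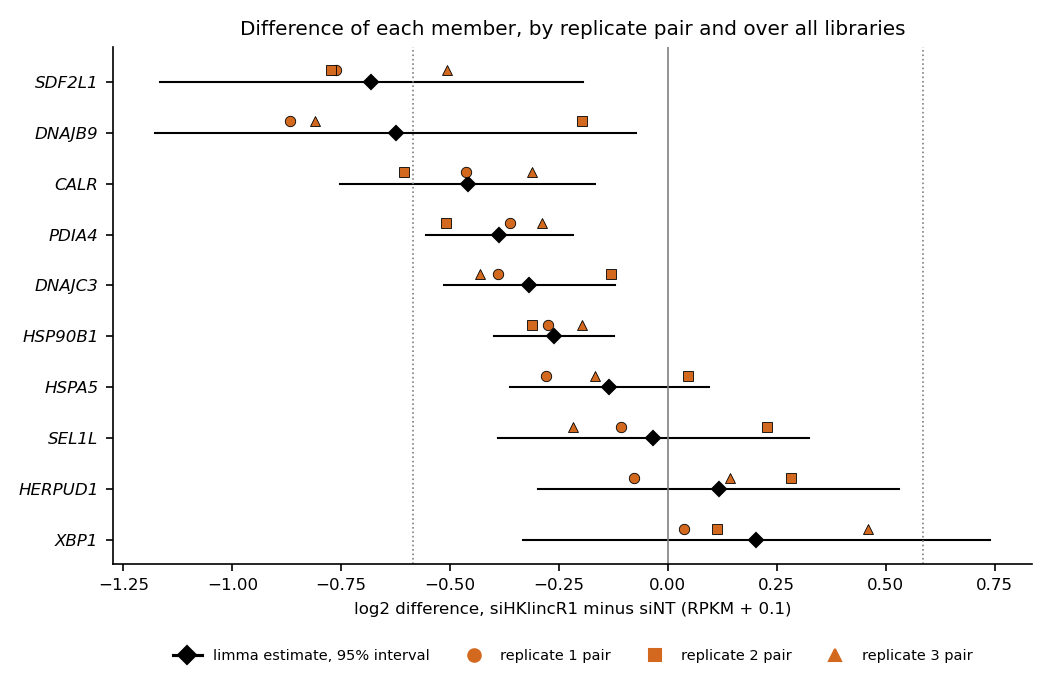
log2 difference of siHKlincR1 minus siNT for each member (x axis, on RPKM + 0.1), with the limma estimate and 95% interval in black, the 3 pairs of equal replicate number as coloured symbols and dotted lines at a 1.5-fold change. All 3 pairs lie below 0 for 6 members and above 0 for XBP1, and the intervals of HSPA5, SEL1L, HERPUD1 and XBP1 include 0.

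By exact two-sided permutation test over the 6 libraries, the 5 members with separate groups had p = 0.10 each, which is the smallest value that 3 libraries against 3 allow. Taken by replicate number, 6 members were lower in all 3 pairs (HSP90B1, DNAJB9, DNAJC3, SDF2L1, PDIA4 and CALR) and 1, XBP1, was higher in all 3. The share of all tested genes that did so was not computed, so these counts are a description only. The median difference of the members was -0.32 in the first pair, -0.16 in the second and -0.25 in the third. HSPA5, HERPUD1 and SEL1L were each highest in the second siHKlincR1 library, and DNAJB9 and DNAJC3 were also higher there than in the other siHKlincR1 libraries. The reads of the 10 members together made up 0.409% to 0.416% of the library total with siNT and 0.331% to 0.365% with siHKlincR1. Those sums did not overlap, but HSPA5, CALR, HSP90B1 and PDIA4 held most of the reads. How often sums of 10 other genes separate was not computed. In these bulk libraries fewer cells with a high level and less RNA per cell cannot be told apart.

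The third library of each group moved several members in the same way. Relative to the mean of the other libraries of its group, SDF2L1 was higher in the third library by 0.40 on the log2 scale with siNT and by 0.66 with siHKlincR1, and CALR by 0.18 and 0.40. XBP1 was lower by 0.79 and 0.40, HERPUD1 by 0.45 and 0.41, and DNAJB9 by 0.33 and 0.61. Over the members, 8 of 10 had the same sign in both groups, and over all tested genes 66.0% did. Among the cytosolic heat shock genes the median deviation of the third library was 0.54 with siNT and 0.74 with siHKlincR1, and in the PERK and ATF4 arm it was -0.81 and -0.57. What set the third libraries apart was not tested.

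**Figure D3:**
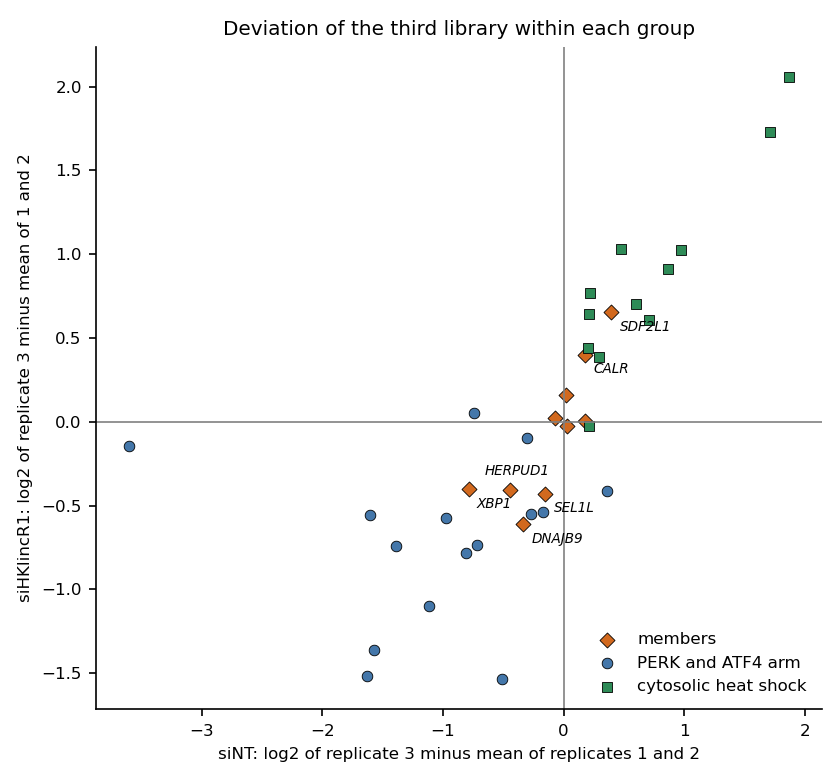
log2 deviation of the third library from the mean of replicates 1 and 2 in the siNT group (x axis) and in the siHKlincR1 group (y axis), on RPKM + 0.1, for the members, the PERK and ATF4 arm and the cytosolic heat shock genes. SDF2L1 and CALR lie in the upper right quadrant with 11 of 12 heat shock genes, and XBP1, HERPUD1, SEL1L and DNAJB9 in the lower left with 13 of 15 genes of the PERK and ATF4 arm.

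Set beside the promoter elements shown above, the members with ERSE had log2 fold changes of -0.46 (CALR), -0.26 (HSP90B1), -0.13 (HSPA5) and 0.20 (XBP1), and those with ERSE-II had -0.68 (SDF2L1) and 0.12 (HERPUD1). PDIA4, DNAJC3, DNAJB9 and SEL1L, which hold neither in these windows, ranged from -0.63 to -0.03. Members with and without an exact match thus covered overlapping ranges. Copies that differ from the searched letters, or lie outside these windows, were not counted. Of the 16 tested genes with an ERSE, 11 were lower and the median was -0.21, against -0.0087 for the 9376 tested genes with a promoter entry but no ERSE. The 12 of them that are not members also had a median of -0.21. Of these 12, 8 were lower, namely ERO1B (-0.58), CRELD2 (-0.52), TMEM120A (-0.40), TRIM5 (-0.39), PDIA6 (-0.32), ALG12 (-0.21), SYNPO (-0.21) and CANX (-0.19). The rest were higher, namely ZNF17 (0.36), FICD (0.24), EIF2A (0.06) and SERP1 (0.003). All but CRELD2 and PDIA6 were named after their values were seen.

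The siRNA was examined for a match to the members because a guide strand can repress mRNAs that pair with its seed, bases 2 to 8. The guide of siHKlincR1_2, given 5′ to 3′ with its seed in capitals, and the window of the only match among the members, in the 3′ UTR of DNAJB9 (chr7:108214689-108214711 of GRCh37, plus strand) with the 7 matching bases in capitals, were as follows.
siHKlincR1_2 guide: aAGCACACgaguauacuuc
DNAJB9 window: tgagaaatGTGTGCTtttgtttt

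The same 7 bases were present in the 3′ UTR of 1513 of 10765 tested genes (14.1%), so 1 member of 10 was near that share. SDF2L1, CALR, PDIA4, DNAJC3 and HSP90B1, the members with separate groups, had no match in their 3′ UTRs of 124 to 3958 nt. Whether the match in DNAJB9 played a part in its level was not tested.

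The genes whose profile over the 6 libraries was nearest to the median profile of the members, by the root mean square of the log2 differences, were CD99L2 (0.0240), CUEDC1 (0.0353), RWDD4 (0.0370), E2F3 (0.0393) and PAFAH1B2 (0.0400). They were selected from 7753 other genes that averaged 5 RPKM or more, whose median was 0.185. The members' median profile that they matched was highest in the siNT libraries (0.15, 0.12 and 0.09 above each gene's own mean) and lowest in the first siHKlincR1 library (-0.23).

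Genes upstream of the members differed little in the list of 15 sensors and signalling genes, of which 8 were lower and 7 higher with a median of -0.0039, and none passed the test in either fit. ATF6, which is cleaved to a transcription factor, had a log2 difference of 0.09 (limma adjusted p = 0.559) and EIF2AK3 (PERK) one of -0.17 (limma adjusted p = 0.368). ERN1 (IRE1), which splices XBP1 mRNA, had 2.62, 2.74 and 1.85 RPKM with siNT and 4.02, 5.57 and 2.34 RPKM with siHKlincR1. The third siHKlincR1 library lay within the range of the controls, and the log2 fold change of 0.64 did not pass (limma adjusted p = 0.342, blocked 0.0787). The largest differences among genes averaging 5 RPKM or more were TRAF2 (-0.35), an adaptor of IRE1, and CREB3 (-0.34), a membrane-bound transcription factor, and neither passed.

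In contrast to the members, all 15 genes of the PERK and ATF4 arm were higher with siHKlincR1 over all libraries. Their median was 0.64. Of the 15451 tested genes, 7762 were higher. The lists were chosen with earlier results of these data known, so the count of 15 is a description only. Not all 15 were higher in every replicate pair. DDIT4 was lower in the first and second pairs (-0.10 and -0.03) and higher in the third (0.73). ATF5 (-0.25) and TNFRSF10B (-0.01) were lower in the third pair only, and the rest were higher in every pair. DDIT4, ATF5 and TNFRSF10B were named after their values were seen. The median was 0.38 without the third siNT library and 0.91 without the third siHKlincR1 library. None passed the test without the block, and 4 rose with the block, namely ASNS, DDIT3, TRIB3 and CEBPG (TRIB3 and CEBPG were named after their values were seen). DDIT3 (CHOP), a transcription factor of prolonged stress, had 25.6, 24.4 and 11.5 RPKM with siNT and 45.1, 52.3 and 22.6 RPKM with siHKlincR1 (log2 fold change 0.96, blocked limma adjusted p = 0.0138). The third siHKlincR1 library of DDIT3 lay below the first and second controls. ASNS, the asparagine synthetase, had a log2 fold change of 1.30 (blocked limma adjusted p = 0.0124), and CHAC1, a glutathione-degrading enzyme, one of 1.46 that did not pass, with the third siNT library at 2.11 RPKM against 26.1 and 27.3 RPKM in the other controls. ATF4 itself had 190.8, 193.0 and 155.5 RPKM with siNT against 210.1, 207.7 and 195.6 RPKM with siHKlincR1. The difference was 0.19 on the log2 scale with no overlap of the groups (limma adjusted p = 0.358). The name of the list describes a pathway, and whether PERK played a part in these levels was not tested.

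Of the partners of the members inside the endoplasmic reticulum, 16 of 20 other chaperones and cofactors were lower (median -0.12) and none was called in either fit. MANF, a secreted stress-induced protein that binds BiP, was at -0.58 on the log2 scale (limma adjusted p = 0.274, blocked 0.0534). CRELD2, likewise stress-induced, was at -0.52 (limma adjusted p = 0.164, blocked 0.0437 at under 1.5-fold). Among 15 disulfide enzymes, 10 were lower (median -0.15) and ERO1A fell. ERO1A, the oxidase that reoxidises protein disulfide isomerase, had 21.2, 21.9 and 17.8 RPKM with siNT and 12.1, 12.4 and 10.7 RPKM with siHKlincR1 (log2 fold change -0.79, limma adjusted p = 0.0344, and 0.0138 with the block). PDIA6, an isomerase like PDIA4, had -0.32 (limma adjusted p = 0.165).

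The degradation list to which HERPUD1 and SEL1L are linked held 18 of 23 lower genes with a median of -0.07 and no call in either fit. Its largest differences were NPLOC4 (-0.31, blocked limma adjusted p = 0.0444) and VCP (-0.25, blocked 0.0891), both of the segregase that extracts ubiquitinated proteins. Of 16 translocon and signal peptidase genes, 12 were lower (median -0.08) and SPCS3, a signal peptidase subunit, fell from 15.5, 14.7 and 15.9 RPKM to 9.94, 10.1 and 10.4 RPKM (log2 fold change -0.60, limma adjusted p = 0.0191, and 0.0192 with the block). SRPRA, the receptor of the signal recognition particle, had -0.39 (limma adjusted p = 0.121, and 0.0411 with the block at under 1.5-fold). Leaving out any 1 library other than the third siHKlincR1 library ended the calls of ERO1A and SPCS3, with adjusted p up to 0.201 and 0.165, as did fitting limma with no mean-variance trend (0.0932 and 0.0638). The 3′ UTRs of ERO1A and SPCS3 held no seed match.

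All 10 oligosaccharyltransferase genes were lower (median -0.08) and 13 of 15 genes of export from and retrieval to the endoplasmic reticulum were (median -0.13), with no call in either fit. MAGT1 (-0.28) and RPN1 (-0.19) had the largest differences of the former, and the coat protein SEC23A (-0.38) and the GTPase SAR1A (-0.35) of the latter. SEC23A and SAR1A had a blocked limma adjusted p of 0.0463 and 0.0444 at changes under 1.5-fold. Of the cytosolic heat shock genes, 11 of 12 were lower (median -0.47) and the groups of all 12 overlapped. The median was -0.18 without the second siHKlincR1 library, -0.30 without the third siNT library and -0.72 without the third siHKlincR1 library. None was called without the block, and with it HSPA1A, HSPA1B, DNAJB1 and HSPA8 fell (DNAJB1 and HSPA8 were named after their values were seen). HSPA1A and HSPA1B, inducible Hsp70 genes whose near-identical sequences make their values uncertain, had log2 fold changes of -1.46 and -1.28. The mitochondrial chaperones and proteases went the other way, with 8 of 10 higher (median 0.10), LONP1 at 0.51 and HSPA9 at 0.29, and none called.

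**Figure D4:**
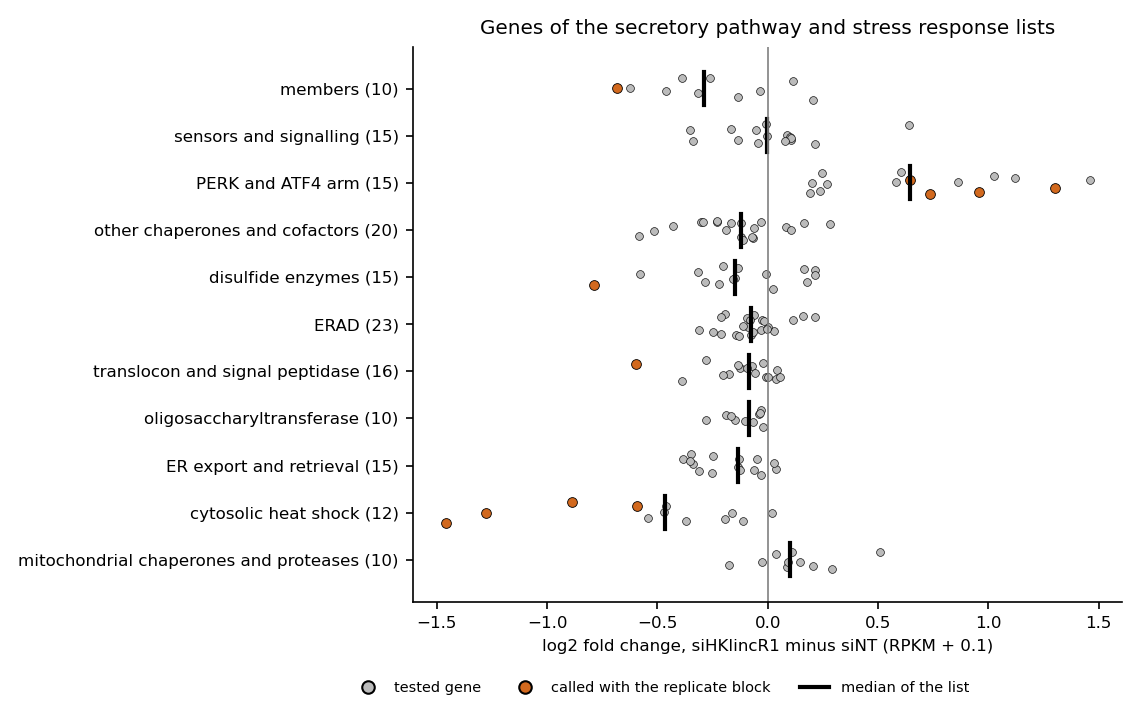
log2 fold change of siHKlincR1 against siNT (x axis, on RPKM + 0.1) for every tested gene of each list, with the number tested in brackets, the list median as a black bar and genes called with the replicate block in orange. The members and the cytosolic heat shock genes lie mostly below 0 (medians -0.29 and -0.47). All 15 genes of the PERK and ATF4 arm lie above 0 (median 0.64). Leaving out 1 library moved the heat shock median to as little as -0.18 and that of the PERK and ATF4 arm to 0.38. The members and lists were chosen with earlier results of these data known.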

How the data were processed

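RNA sequencing values of 6 libraries were used, 3 per group, grouped by their sample titles. The authors prepared strand-specific polyA libraries (paired-end reads), counted reads per gene with Rsubread featureCounts on Ensembl v74 gene models of hg19 and tested the counts with edgeR. The authors deposited RPKM, in which reads are divided by the gene's length and the library's total. CASAVA 1.8.2 is named in the submitters' processing notes, while aligner and strand setting of the counting are not given in the sources used here.

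RPKM values were tested with limma 3.58.1 (R 4.3.3, lmFit, eBayes with a mean-variance trend) on log2(RPKM + 0.1) for genes averaging 0.5 RPKM or more. Calls needed a change above 1.5-fold and p-values below 0.05 after Benjamini-Hochberg adjustment. A fold change on this scale understates that of low genes. Reads were worked back from the unrounded RPKM values (100% of nonzero values came out whole within 0.01 reads), for the depth and for a voom fit. The deposited file gives no counts, so a count model was not the main test. The steps were tested on simulated reads, which held no library effect like that of the third libraries.

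The members and lists were chosen with earlier results of these data known. Genes of the other lists were named if called, or if among the 2 largest changes of at least 5 RPKM, and ATF4, DDIT3, ERN1, EIF2AK3 and ATF6 in any case. MESDC2 was matched as MESD, and PECAM1 was not matched. Equal replicate numbers in the titles gave the pairing. Deviations from the group means correlated at 0.142, 0.137 and 0.266 between libraries of equal number (mean 0.181) and at a mean of -0.0890 between unequal numbers. These means are not independent, because the deviations within each group sum to 0. The first siNT library also correlated with the second siHKlincR1 library at 0.113. Whether libraries of equal number were prepared together is not stated, and the blocked fits rest on that numbering. Alternatives changed the pseudocount, filter, scaling, variance model, library weights, block and fold threshold, and omitted every library once. A blocked fit without the fold threshold, a fit without replicate 3 of both groups, and the settings' values for the other lists were chosen after seeing the data.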

Additional observations from a re-analysis of the deposited data

How the results depend on the processing

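The direction of 7 members (HSPA5, HSP90B1, DNAJB9, DNAJC3, SDF2L1, PDIA4 and CALR) held under every alternative run, and the members' median log2 fold change stayed between -0.31 and -0.26. Directions turned only for HERPUD1, SEL1L and XBP1. HERPUD1 was -0.0026 with library weights, and with 1 library left out it ranged from -0.036 to 0.25, SEL1L from -0.20 to 0.11 (0.060 without replicate 3 of both groups) and XBP1 from -0.059 to 0.35.

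No member was called higher in any fit. The number called lower was 1 with the replicate block, 3 with the block and no fold threshold, 2 with library weights (SDF2L1 and DNAJB9), and 0 to 2 when libraries were left out. At the 1.5-fold threshold the block changed the call of SDF2L1 and of no other member, and with no fold threshold also those of PDIA4 and CALR. Over all tested genes the calls lower and higher were 125 and 79 with the replicate block, 266 and 186 with the block and no fold threshold, 536 and 399 with library weights, 34 and 12 with no filter on low values, and 84 and 3 with voom. There were 16 lower with no mean-variance trend, and 0 higher with a pseudocount of 0.01 RPKM or a mean of at least 5 RPKM, and 2 higher with library median scaling or no fold threshold. With libraries left out they ranged from 7 to 315 lower and from 0 to 205 higher, the highest without the third siHKlincR1 library, and were 259 and 181 without replicate 3 of both groups. Beside the fits that left out a library or the mean-variance trend, the call of ERO1A was lost with no filter (limma adjusted p = 0.0675), and that of SPCS3 with a pseudocount of 1 RPKM or library median scaling, where the change was under 1.5-fold.

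In the other lists, genes called lower (2 without a change of setting) numbered 6 with the replicate block, 14 with the block and no fold threshold, 7 with library weights, 1 with a pseudocount of 1 RPKM, no filter or library median scaling, 0 with no mean-variance trend, and 0 to 6 with libraries left out. Genes called higher numbered 4 with the replicate block, with or without the fold threshold, 8 with library weights, and 0 to 6 with libraries left out.

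A mean of at least 5 RPKM left DNAJB9 out. With 3 libraries a group, the differences of SEL1L, HERPUD1 and XBP1 had adjusted p of 0.237 or more in every limma fit run, and that of HSPA5 was under 0.05 with library weights only (-0.27, adjusted p = 0.0289). The fit with library weights gave the first siHKlincR1 library by far the largest weight (6.93).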
